A study of Rattus norvegicus with 12 samples.

Results

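Solute carriers, the Slc genes, were followed through 12 expression arrays of CC531, an established rat colon carcinoma line. Their members were all probe sets whose single gene symbol in the array annotation begins with Slc and a digit: 181 of 8740 probe sets, from 120 genes in 37 families. Of these, 122 probe sets (86 genes) were bright enough to be tested and 59 were not. The arrays comprised 5 of cells given 4.5 mM butyrate and 5 of cells given 3 mM aspirin, each at 2, 6, 12, 16 and 24 h, and 2 of untreated cells, at 2 and 24 h. Total RNA was used, and the labels name no strain of origin, clone, culture or vehicle. Every combination of treatment and hour had 1 array, so the hours of a drug served as its arrays. Because the labels do not say that the arrays came from separate cultures, a p-value here reflects only how much these arrays scatter, which may be technical and which also holds changes over the hours.

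Solute carriers are membrane proteins that move sugars, amino acids, ions, metals, vitamins and metabolites across the cell surface or the membranes of organelles. A family number groups proteins of related sequence, and many carriers couple the uptake of one solute to a gradient of sodium, protons or another solute. In the colon they take up short-chain fatty acids such as butyrate, which bacteria make from fibre and which also inhibits histone deacetylases, and they exchange ions with the lumen. Aspirin inhibits the cyclooxygenases that make prostaglandins.

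Values are deposited array intensities on a linear scale. For tests, those under 90.91 were raised to that floor and all were put on the log2 scale, so a change of 1 is 2-fold. A change is the mean over the 5 hours of a drug minus the mean of both untreated arrays, with its standard error (SE). A probe set is called at a Benjamini-Hochberg adjusted p under 0.05 in limma over all 6118 tested probe sets. Where arrays lay at the floor, the size of the fitted change depends on where the floor is set. In bulk RNA, fewer cells expressing a gene and less RNA per cell cannot be told apart. Where a gene has several probe sets they are numbered in a fixed order, and the Slc results compare levels within a probe set only.

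With butyrate, 11 Slc probe sets of 10 genes rose and 9 of 7 genes fell. The risers were 9.02% of the 122 tested, beside 7.78% of all tested probe sets called higher, and the fallers were 7.38%, beside 3.92% called lower. All 20 lay outside the range of the untreated pair on all 5 butyrate arrays, and 15 changed at least 2-fold. With aspirin, 0 of 122 members were called in limma, beside 0.147% of all tested probe sets, while 17 members (13.9%) had an unadjusted p under 0.05, beside 656 of all tested probe sets (10.7%). The median change over the members was -0.04 with butyrate and -0.08 with aspirin, beside 0.00085 and -0.04 over all tested probe sets.

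The call count for butyrate depended on the arrays. It was 7 without the untreated 2 h array, 11 without the untreated 24 h array, 27 without the butyrate 2 h array, and 11, 9, 8 and 12 without the butyrate 6, 12, 16 and 24 h arrays. For aspirin it became 1 without the untreated 2 h array and 7 without the untreated 24 h array. Slc27a1 was the gene called against untreated whichever array was left out, with an adjusted p of at most 0.0229.

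**Figure D1:**
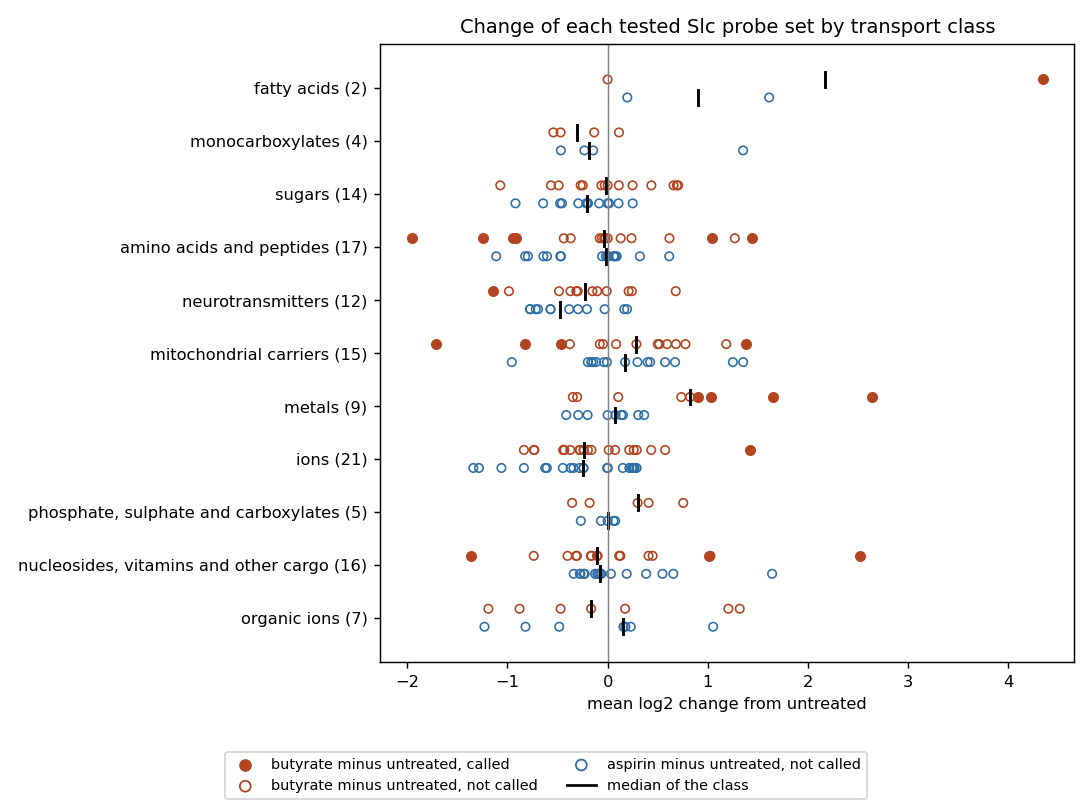
Mean log2 change from untreated (horizontal axis) of each of the 122 tested Slc probe sets, by transport class with the number tested in brackets; butyrate lies above aspirin in each class, filled points are called and bars are class medians. Of the 20 filled points, 11 lie right of 0 and 9 left, and no aspirin point is filled.

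The sequences before the genes with the clearest butyrate calls are shown here, since these genes carry the butyrate results that follow. They are the 250 bases before the start of the gene in RefSeq (GRCr8), read on the strand of the gene, for the 3 risers and 3 fallers of smallest adjusted p that had an entry. The stretch of Slc27a1 is chr16:18312717-18312966 (+ strand), that of Slc40a1 chr9:55543461-55543710 (- strand) and that of Slc41a2 chr7:22271063-22271312 (+ strand). That of Slc3a2 is chr1:215048065-215048314 (- strand), that of Slc19a1 chr20:11600937-11601186 (- strand) and that of Slc7a1 chr12:11664238-11664487 (+ strand). Capitals mark 3 motifs searched on both strands. The first is the E-box, CACGTG, which basic helix-loop-helix factors such as Myc bind. The second is the GC box, which is the site of Sp1 and related factors and which reads GGGCGG on one strand. The third is TGATGNAA, the core of the amino acid response element.
Slc27a1: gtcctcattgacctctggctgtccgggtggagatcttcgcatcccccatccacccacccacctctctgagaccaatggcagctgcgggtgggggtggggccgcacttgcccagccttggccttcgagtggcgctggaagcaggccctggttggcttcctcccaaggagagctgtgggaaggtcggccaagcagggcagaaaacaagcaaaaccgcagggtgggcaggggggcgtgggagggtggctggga
Slc40a1: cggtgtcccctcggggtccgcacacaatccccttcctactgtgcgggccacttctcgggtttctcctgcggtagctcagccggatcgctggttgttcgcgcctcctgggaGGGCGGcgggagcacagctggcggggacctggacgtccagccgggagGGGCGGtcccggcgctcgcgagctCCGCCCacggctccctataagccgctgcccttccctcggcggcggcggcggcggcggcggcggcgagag
Slc41a2: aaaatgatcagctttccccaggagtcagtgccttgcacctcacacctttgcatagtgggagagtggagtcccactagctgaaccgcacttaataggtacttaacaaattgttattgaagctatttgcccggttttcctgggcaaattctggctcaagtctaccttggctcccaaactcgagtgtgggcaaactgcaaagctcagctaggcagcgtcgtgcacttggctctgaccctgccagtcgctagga
Slc3a2: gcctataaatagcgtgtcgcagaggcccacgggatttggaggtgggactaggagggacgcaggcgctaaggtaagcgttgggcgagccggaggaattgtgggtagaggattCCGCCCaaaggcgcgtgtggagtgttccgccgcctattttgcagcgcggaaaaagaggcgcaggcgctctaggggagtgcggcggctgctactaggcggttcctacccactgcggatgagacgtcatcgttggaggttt
Slc19a1: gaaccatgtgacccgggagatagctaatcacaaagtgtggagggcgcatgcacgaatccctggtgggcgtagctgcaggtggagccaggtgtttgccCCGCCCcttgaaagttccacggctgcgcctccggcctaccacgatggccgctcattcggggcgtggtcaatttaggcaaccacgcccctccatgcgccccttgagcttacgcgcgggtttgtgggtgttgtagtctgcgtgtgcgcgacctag
Slc7a1: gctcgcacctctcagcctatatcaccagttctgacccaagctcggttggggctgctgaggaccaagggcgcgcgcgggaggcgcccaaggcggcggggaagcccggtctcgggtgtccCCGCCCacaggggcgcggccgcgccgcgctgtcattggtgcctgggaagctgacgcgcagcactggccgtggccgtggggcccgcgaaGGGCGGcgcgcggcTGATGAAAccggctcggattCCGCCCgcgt

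Among these 6 sequences, the GC box stood 3 times before Slc40a1 (first bases at -140, -93 and -69), once before Slc3a2 (-139), once before Slc19a1 (-153) and 3 times before Slc7a1 (-132, -44 and -10), counted back from -1, the base next to the gene start. Slc7a1 also held the TGATGNAA core at -30, while Slc27a1 and Slc41a2 held none of the motifs. Of called genes with an entry, a GC box stood before 5 of 9 risers and 5 of 6 fallers, an E-box before 2 of 9 and 0 of 6, and the TGATGNAA core before 0 of 9 and 1 of 6. Among 71 tested Slc genes with an entry, the shares were 52.1% for the GC box, 11.3% for the E-box and 2.82% for the TGATGNAA core. Among all 27457 sequences of the same length they were 32.4%, 5.79% and 3.27%. Matches of letters are no evidence of binding, and overlapping matches were each counted.

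Fatty acid carriers (family 27) had 2 tested probe sets. Slc27a1 codes for a long-chain fatty acid transport protein. Its intensity was 1056.9, 1952.5, 2855.4, 2011 and 1817.9 at 2, 6, 12, 16 and 24 h of butyrate, and 297.3, 20.7, 184.6, 482.8 and 689.1 at the same hours of aspirin, against -138.8 and 6.1 in untreated cells at 2 and 24 h. The butyrate arrays all lay far above both untreated ones, which were at the floor, and above aspirin at every hour. It rose by 4.35 ± 0.62 with butyrate (SE, adjusted p = 0.00128), by 3.34 (0.0119) with a higher floor, set at the 5th percentile of the table, and by 8.51 (0.000417) with a lower one, set at the 25th. The aspirin change was 1.61 (0.404). Slc27a2, of the same family, was at or under the floor on all butyrate and untreated arrays and reached 179.5 on 1 aspirin array, at 24 h.

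The amino acid and peptide carriers (17 tested) held 2 called rises and 4 called falls, beside 7.78% and 3.92% of all tested probe sets. Their median change was -0.03. Slc3a2 codes for the heavy chain that brings light chains such as Slc7a5 to the cell surface. On its probe set 1 the intensity was 2693.4, 3319.7, 2626.4, 2246.2 and 1775.7 with butyrate and 4252.8, 4893.9, 5070.7, 5447 and 5409 with aspirin, against 4360 and 5237.9 in untreated cells. All butyrate arrays were below both untreated arrays, and the aspirin arrays surrounded them. Slc3a2 fell by 0.95 ± 0.21 on this probe set (adjusted p = 0.0151) and by 0.91 ± 0.22 on the other (0.0209).

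Slc7a1, a carrier of arginine and lysine, fell on 2 of its 3 probe sets. Probe set 2 read 1300.5, 734.1, 728.1, 715.9 and 663.2 with butyrate and 1521.4, 1650.9, 1113.7, 1382.8 and 1250.2 with aspirin, against 2363.4 and 1515.4 in untreated cells. It was lower by 6 h and stayed there, a fall of 1.24 ± 0.29 (adjusted p = 0.0178). Probe set 3 fell by 1.96 ± 0.54 (0.0348), a call lost with the 5th-percentile floor (0.107) and the 25th-percentile floor (0.0625), and probe set 1 read -0.44 (0.572).

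The glutamate carrier Slc1a1 rose on probe set 2, where butyrate gave 501.7, 438, 652, 569.4 and 565.4 and aspirin 199.5, 233.8, 184.7, 219 and 137.6, against 179.6 and 221.3 in untreated cells. The butyrate arrays stood apart from all others, with a change of 1.44 ± 0.30 (adjusted p = 0.0102). The other Slc1a1 probe sets read 1.27 (0.128) and -0.03 (0.974), so the probe sets of this gene disagree. Slc3a1, the heavy chain of the cystine and dibasic amino acid carrier, rose by 1.05 ± 0.32 (0.0494, but 0.0701 with the 5th-percentile floor). Slc7a5, the light chain that carries large neutral amino acids, had a butyrate change of -0.08 (0.927).

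Several of these amino acid calls depended on which arrays were included, although the changes kept their direction. With any 1 array left out, the change was 1.29 to 1.59 for Slc1a1 probe set 2 and 0.90 to 1.20 for Slc3a1. It was -1.56 to -0.92 for Slc7a1 probe set 2 and -2.71 to -1.20 for its probe set 3. For Slc3a2 it was -1.08 to -0.81 on probe set 1 and -1.07 to -0.76 on probe set 2. Without the untreated 2 h array the adjusted p was 0.0523 for Slc1a1, 0.151 for Slc7a1 probe set 2, 0.327 for its probe set 3 and 0.193 for Slc3a1. Without the untreated 24 h array it was 0.101 and 0.138 for the probe sets of Slc3a2. Leaving out single arrays ended the call in 8 of 12 cases each for Slc3a1 and Slc7a1 probe set 3.

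Sugar carriers (families 2, 5 and 37, 14 tested) had 0 called changes from untreated. Over all tested probe sets, 7.78% were called higher and 3.92% lower with butyrate, and 0.147% were called with aspirin. By family number the class includes the vitamin carrier Slc5a6. The class median was -0.01 with butyrate and -0.20 with aspirin. Slc2a1, the widely expressed glucose carrier GLUT1, read 2980.5, 2917.1, 2651.6, 1865.7 and 1603.4 with butyrate and 1132.2, 1078.4, 1155.6, 1732.5 and 1236.6 with aspirin on probe set 1, against 1914.2 and 1090.3 in untreated cells. The butyrate arrays at 2, 6 and 12 h were above both untreated arrays and those at 16 and 24 h lay between them. Untreated cells also read lower at 24 h than at 2 h. Set beside the 2 h untreated value alone, Slc2a1 probe set 1 was 0.64 higher at 2 h of butyrate. Set beside the 24 h untreated value alone, it was 0.56 higher at 24 h of butyrate. These single-array differences were not tested. The changes on its probe sets were 0.69 ± 0.30 (adjusted p = 0.15) and 0.44 ± 0.29 (0.356). Slc2a4, the insulin-responsive carrier GLUT4, read 0.70 (0.102) and 0.66 (0.315), and Slc5a1, the sodium-glucose carrier of the gut, read -1.07 (0.0968) and -0.06 (0.974).

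Monocarboxylate carriers (family 16, 4 tested) had 0 called changes from untreated. Over all tested probe sets, 7.78% were called higher and 3.92% lower with butyrate, and 0.147% were called with aspirin. Slc16a1, or MCT1, carries lactate and butyrate itself. On probe set 1 it read 3532.7, 3371, 2488.1, 2165.6 and 3280.5 with butyrate and 2237.8, 2537.1, 3007, 2099.4 and 1774 with aspirin, against 4226.9 and 1718 in untreated cells. All 5 butyrate arrays and all 5 aspirin arrays lay between the untreated arrays, which differed more from each other than from any of them. The butyrate changes of its probe sets were 0.11 ± 0.32 (adjusted p = 0.862) and -0.13 ± 0.19 (0.693). Slc16a6, or MCT7, read 390, 56.7, 91.9, 153.3 and 49.7 with butyrate and 1127.3, 464.8, 300.3, 494 and 414.7 with aspirin, against 187.5 and 207 in untreated cells. It was above both untreated arrays at every hour of aspirin (1.35, 0.414) and below them from 6 h of butyrate on (-0.54, 0.593).

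The mitochondrial carriers (family 25, 15 tested) held 1 called rise and 3 called falls with butyrate, beside 7.78% and 3.92% of all tested probe sets. Slc25a5, an ADP/ATP exchanger, read 14366.2, 12795.7, 9758.8, 8224 and 7751.3 with butyrate and 19314.9, 18904.6, 16494.3, 18091.1 and 17828.2 with aspirin, against 18143.3 and 18231.9 in untreated cells. Its level was lower at each later hour of butyrate, and it fell by 0.82 ± 0.20 (adjusted p = 0.0215). Its relative Slc25a4, also an ADP/ATP exchanger, had a butyrate change of -0.05 (0.828).

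Slc25a26, the carrier of S-adenosylmethionine into mitochondria, read 349.8, 65.6, 76.2, 60.5 and 85.6 with butyrate and 483.5, 797.5, 595.4, 629.9 and 453.2 with aspirin, against 375.5 and 404.2 in untreated cells. From 6 h of butyrate on it was at the floor, and it fell by 1.71 ± 0.49 (adjusted p = 0.0382, but 0.162 with the 5th-percentile floor). Slc25a3, the phosphate carrier, fell by 0.47 ± 0.11 (0.0212). Slc25a20, which exchanges acylcarnitine for carnitine so that fatty acids can be oxidised, rose by 1.38 ± 0.37 (0.0303).

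Of these mitochondrial calls, those for Slc25a5 (adjusted p = 0.0686) and Slc25a20 (0.0763) were lost with the 5th-percentile floor. That for Slc25a3 was lost when arrays were rescaled by quantiles, and when the variance trend was left out. That for Slc25a20 was lost when arrays were rescaled by quantiles or by their medians, and had an adjusted p of 0.269 without the untreated 2 h array. Slc25a5 had 0.118 without that array. Without the untreated 24 h array, Slc25a26 had 0.17 and Slc25a3 had 0.131.

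Metal carriers (9 tested) had 4 called rises with butyrate and 0 falls, beside 7.78% and 3.92% of all tested probe sets. Of these rises, 2 were the probe sets of 1 gene, Slc40a1. The class had a median change of 0.82, beside 0.08 with aspirin. The median stayed positive with other scalings of the arrays, at 0.69 and 0.63. Slc40a1 is ferroportin, the iron exporter, and read 254.4, 521.5, 365, 427.1 and 270.1 with butyrate and 118.6, 137.9, 127.3, 128.9 and 108.3 with aspirin on probe set 1, against 139.6 and 79 in untreated cells. All butyrate arrays lay above both untreated arrays and all aspirin arrays. It rose by 1.65 ± 0.31 (adjusted p = 0.00668) and, on probe set 2, by 0.90 ± 0.27 (0.043). With the 5th-percentile floor neither was called (0.0553 and 0.432).

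Slc41a2 is a magnesium carrier and read 188.4, 540.4, 817.5, 790.2 and 897.2 with butyrate and 97.6, 69.5, 99.3, 112.1 and 222.6 with aspirin, against 72.8 and 42.5 in untreated cells. It was above untreated from 2 h of butyrate, with the highest value at 24 h, a rise of 2.64 ± 0.54 (adjusted p = 0.00903, but 0.114 with the 5th-percentile floor). Slc41a3, of the same family, read 1261.4, 1539.9, 1444.2, 1732.2 and 2009.2 with butyrate and 933.3, 825.5, 980.5, 1039.5 and 988.3 with aspirin, against 709.3 and 834.1 in untreated cells. It rose by 1.04 ± 0.23 (0.0131), and no butyrate array overlapped the other groups. The zinc carrier Slc30a4 read 0.74 (0.102). Slc11a2, the iron importer DMT1, read between -0.35 and 0.11 on its 3 probe sets, all with adjusted p above 0.5.

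Without the untreated 2 h array the adjusted p was 0.073 for Slc41a2 and 0.0563 for Slc41a3, and without the untreated 24 h array it was 0.0528 for Slc40a1 probe set 1. Slc40a1 probe set 2 lost its call without 11 of the 12 arrays, with an adjusted p of up to 0.159.

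Carriers of sodium, chloride, bicarbonate, calcium and related ions (21 tested) held 1 called rise with butyrate and 0 falls. Over all tested probe sets these shares were 7.78% and 3.92%. The riser was Slc12a7, a potassium-chloride cotransporter. It read 903.9, 886.8, 1278.4, 913.6 and 1232.3 with butyrate and 602.4, 410.8, 324.5, 382.1 and 639.3 with aspirin, against 650.8 and 227.5 in untreated cells. The change was 1.42 ± 0.40 (adjusted p = 0.0368, but 0.0848 with the 5th-percentile floor), though without the untreated 24 h array it was 0.66. The class median was -0.24 with either drug. Slc12a2, the cotransporter that loads chloride into secreting cells, read -0.16 (0.65) with butyrate on probe set 1. Its other tested probe sets read -0.84 (0.0836) and -0.74 (0.194). All 3 probe sets for the sodium-proton exchangers Slc9a2, Slc9a3 and Slc9a4 were too dim to be tested.

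Among the nucleoside, vitamin and other carriers (16 tested), Slc19a1, the reduced folate carrier, read 571.1, 282.2, 378.5, 385.4 and 422.7 with butyrate and 993.8, 878.6, 680.2, 1003.9 and 726.7 with aspirin on probe set 1, against 1248.3 and 842.5 in untreated cells. It fell by 1.37 ± 0.31 (adjusted p = 0.0159), with no overlap between butyrate and the other arrays. Its second probe set read -0.32 (0.486). Slc29a1, an equilibrative nucleoside carrier, rose by 1.01 ± 0.28 (0.0354, but 0.0546 with the 5th-percentile floor).

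Slc44a4, a choline-like carrier that takes up thiamine pyrophosphate in the human colon, read 1246.5, 1846, 1775.2, 1736.8 and 1538.2 with butyrate and 576.6, 631.9, 627.3, 1397.4 and 1638.9 with aspirin, against 44.7 and 871.8 in untreated cells. Its rise was 2.52 ± 0.65 (adjusted p = 0.0266, and 0.0957 with the 5th-percentile floor), but the untreated arrays differed widely, and without the one at 2 h the change was 0.89 (0.362). Without the same array Slc19a1 had an adjusted p of 0.108 and Slc29a1 of 0.131. Slc29a1 was also lost when arrays were rescaled by quantiles or medians, as was Slc3a1.

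The neurotransmitter family (12 tested) held 0 called rises and 1 called fall with butyrate, beside 7.78% and 3.92% of all tested probe sets. The faller was Slc6a20a, which carries proline. It read 259.7, 178.5, 180, 166.7 and 175.9 with butyrate and 160.1, 208.9, 291.8, 396 and 277.4 with aspirin, against 418.1 and 419.3 in untreated cells. Both drugs were below untreated on every array. The fall was 1.14 ± 0.35 with butyrate (adjusted p = 0.0485, but 0.0541 with the 5th-percentile floor), and the aspirin change was -0.72 (0.488). The butyrate call was lost without 9 of the 12 arrays (0.153 without the untreated 2 h array). Organic ion carriers (7 tested) and phosphate, sulphate and carboxylate carriers (5 tested) had 0 calls against untreated. Over all tested probe sets the shares were again 7.78% and 3.92% with butyrate, and 0.147% with aspirin. Slc10a2, the bile acid carrier of the ileum, read -1.19 (0.102), and Slc22a18, an organic cation carrier, read 1.32 (0.0533).

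**Figure D2:**
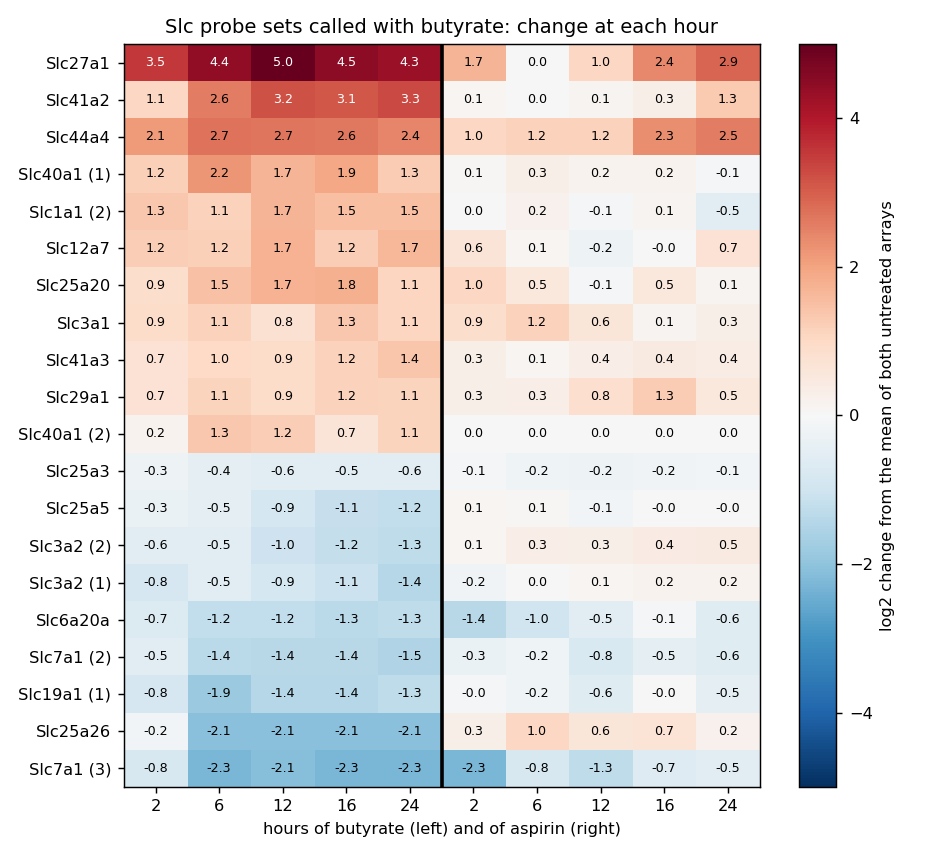
Log2 change from the mean of both untreated arrays at each hour (columns, butyrate left of aspirin) for the 20 Slc probe sets called with butyrate (rows, from the largest rise to the largest fall); red is higher and blue lower. Apart from Slc40a1 probe set 2, each riser is visibly higher at 2 h, while Slc25a26 and Slc7a1 probe set 3 reach their low level at 6 h.

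Hour by hour, Slc probe sets at least 2-fold from the untreated mean became more numerous with butyrate. After 2 h there were 18 (9 higher, 9 lower), or 14.8% of members beside 11.3% of all tested probe sets. After 6 h there were 30 (19 and 11), or 24.6% beside 17%, and after 12 h 31 (20 and 11), or 25.4% beside 22%. After 16 h there were 32 (17 and 15), or 26.2% beside 23.6%, and after 24 h 41 (23 and 18), or 33.6% beside 25.7%. The share of members was above that of the whole table at each hour, and both increased with time.

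With aspirin 22 members (8 higher, 14 lower) differed 2-fold at 2 h, or 18% beside 10.4% of all tested probe sets. At 6 h it was 13 (10.7% beside 10.1%) and at 12 h 14 (11.5% beside 8.07%). At 16 h it was 16 (13.1% beside 8.92%) and at 24 h 17 (13.9% beside 14%). These counts carry no test and hold array noise: between 24 h and 2 h without drug, 24 members differed 2-fold (6 higher and 18 lower at 24 h), or 19.7%, beside 16.5% of all tested probe sets.

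**Figure D3:**
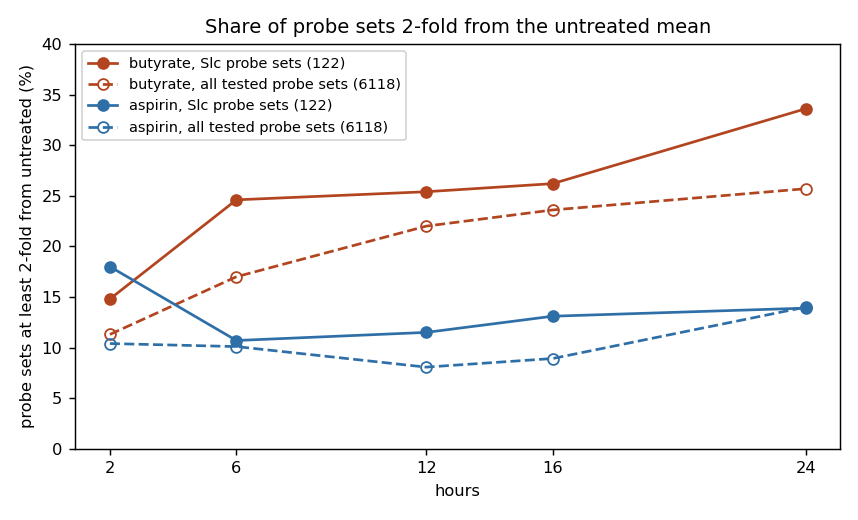
Percent of tested probe sets at least 2-fold from the untreated mean (vertical axis) at each hour (horizontal axis) of butyrate and of aspirin, for the 122 Slc probe sets (solid) and all 6118 (dashed). The butyrate lines climb to 33.6% and 25.7% at 24 h, while the aspirin lines are at 13.9% and 14%.

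Slopes over log2 hours asked which carriers kept changing during a drug. They were fitted on treated arrays alone, so a change over the hours without drug is not taken out. With butyrate 6 Slc probe sets had a rising slope (4.92%, beside 4.79% of all tested) and 3 a falling one (2.46%, beside 4.2%). The count of 9 was 4 without the butyrate 2 h or 16 h array, 3 without the butyrate 24 h array and 5 without the aspirin 16 h array. With aspirin 0 were called in limma, beside 1.65% of all tested, and 13 members (10.7%) had an unadjusted p under 0.05, beside 1204 of all tested probe sets (19.7%). The difference of slopes between the drugs was called for 0 members, beside 1.73%, with 21 members (17.2%) and 1113 of all tested probe sets (18.2%) at an unadjusted p under 0.05, so no slope is shown to differ between the drugs.

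Slc7a5 read 5099.5, 3620.8, 3693.1, 1837.7 and 1769.1 at successive hours of butyrate and 1478, 1905.6, 1754.6, 2226 and 1527.8 with aspirin, against 4098.9 and 2362 in untreated cells. It fell along the hours of butyrate by 1.52 from 2 to 24 h on the fitted line (adjusted p = 0.0415, but 0.0869 with the 5th-percentile floor). The call was also lost with no filter on dim probe sets. Untreated cells read lower at 24 h than at 2 h too, and the part of time without drug was not tested. The fitted falls were 0.95 for Slc25a5 (0.00905) and 0.82 for Slc3a2 probe set 2 (0.0307), the partner of Slc7a5 at the cell surface. Slc3a2 probe set 1 had no called slope, and that of probe set 2 was lost without 4 of the 10 treated arrays. Slc25a5 kept its slope call whichever array was left out, while that of Slc7a5 was lost without 8 of the 10 treated arrays and had 0.23 without the butyrate 2 h array.

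Rising slopes included Slc1a3, a glutamate carrier, whose probe set 3 read 86.8, 117.3, 398.8, 374.3 and 491.3 with butyrate and 184.4, 169.3, 180.9, 229.7 and 126.9 with aspirin, against 515 and 114.6 in untreated cells. The fitted rise was 2.69 (adjusted p = 0.015, and 0.0502 with the 5th-percentile floor), although all its butyrate values but the first lay within the untreated pair. Slc41a2 rose along the hours by 2.29 (0.0278), Slc22a18 by 1.61 (0.0478) and Slc18a3 probe set 2, a vesicular acetylcholine carrier, by 1.80 (0.0295, but 0.307 with the 5th-percentile floor and 0.0635 with the 25th-percentile floor). Without the butyrate 2 h array the adjusted p was 0.105 for Slc1a3, 0.611 for Slc41a2 and 0.524 for Slc18a3. The remaining called slopes were rises of Slc25a11 probe set 2 by 1.08 (0.0122) and of Slc34a1 probe set 3 by 0.97 (0.0372).

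**Figure D4:**
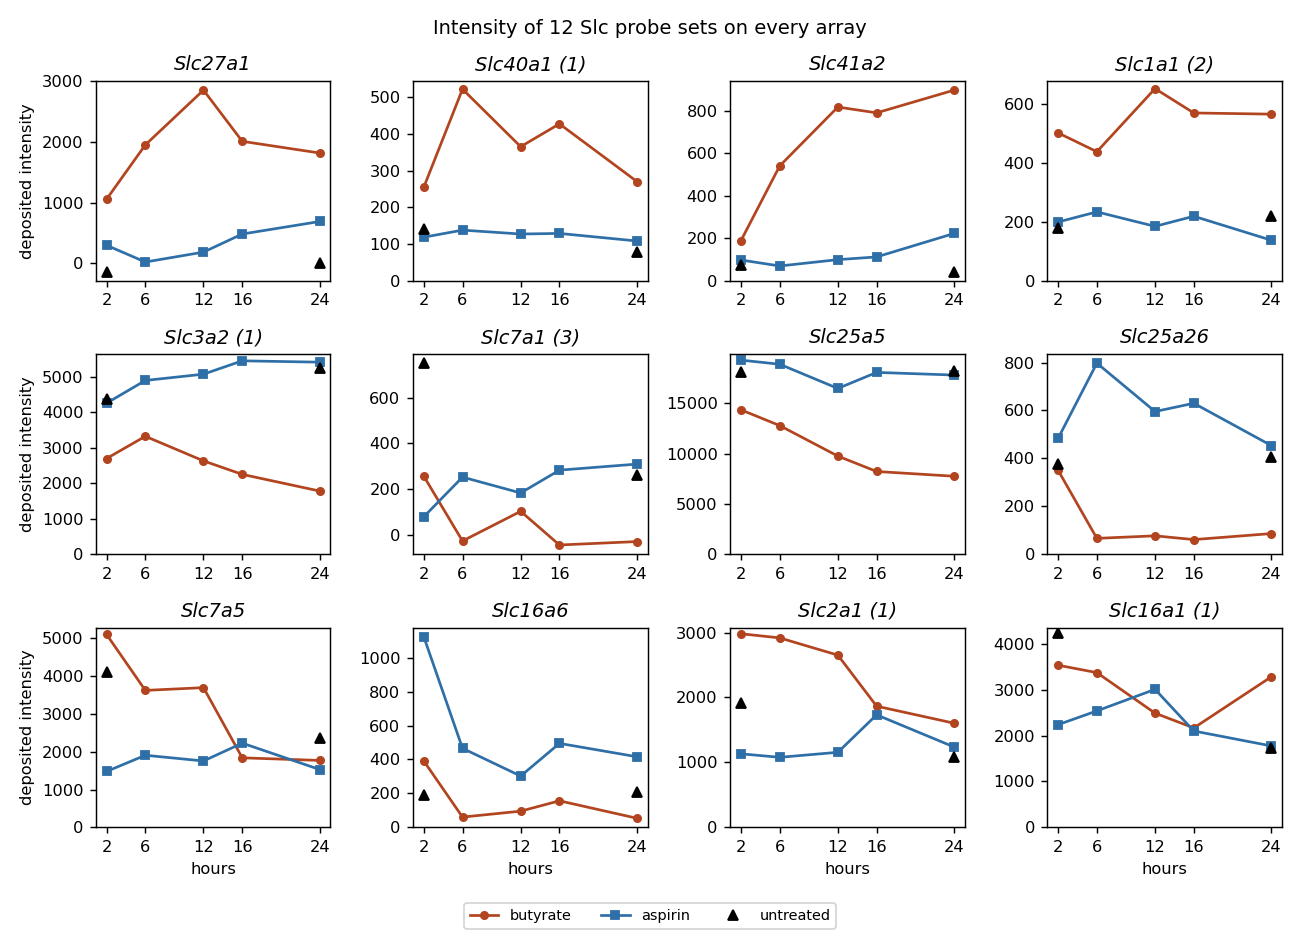
Deposited intensity (vertical axes, linear) against hours (horizontal axes) for 12 Slc probe sets, with butyrate as circles, aspirin as squares and untreated cells as triangles; brackets number the probe sets of a gene. Slc27a1 with butyrate runs between 1056.9 and 2855.4, above all other arrays, and Slc16a1 probe set 1 stays between its untreated values with both drugs.

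Butyrate and aspirin were compared at matched hours, at doses that differ. Of the members, 16 were higher with butyrate (13.1%, beside 15.6% of all tested probe sets) and 10 lower (8.2%, beside 9.61%), and 25 of these 26 went one way at every hour. Both shares were near the background. The count of 26 was 2 without the butyrate 16 h, aspirin 12 h or aspirin 16 h array, 3 without butyrate 12 h, 6 without either 6 h array and 12 without either 24 h array. This comparison and that with untreated use the same butyrate arrays.

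Of the metal carriers 5 of 9 tested probe sets were higher with butyrate than with aspirin, and of the fatty acid carriers 1 of 2. Over all tested probe sets this share was 15.6%. The differences were 2.73 ± 0.51 (adjusted p = 0.0172) for Slc27a1, 2.28 ± 0.34 (0.01) for Slc41a2 and 1.52 ± 0.18 (0.00694) for Slc40a1. Also higher were Slc1a1 probe set 2 (1.49 ± 0.22, 0.0102), Slc12a7 (1.18 ± 0.23, 0.0188), Slc22a18 (1.09 ± 0.28, 0.0378) and the bicarbonate exchanger Slc4a3 (1.32 ± 0.30, 0.0264). Lower with butyrate were Slc16a6, with a difference of -1.89 ± 0.20 (0.0056), and Slc25a26, with one of -2.28 ± 0.41 (0.0159). Slc3a2 probe set 2 differed by -1.24 ± 0.18 (0.01) and Slc19a1 probe set 1 by -1.09 ± 0.20 (0.0166). Slc16a6 and Slc40a1 kept this call whichever array was left out. With the 5th-percentile floor the calls of Slc25a26 (0.0536), Slc41a2 (0.0807) and Slc22a18 (0.0939) were lost, and with the 25th-percentile floor that of Slc4a3 (0.0783). Rescaling by quantiles ended the calls of Slc4a3 and Slc22a18, and centring on medians that of Slc22a18.

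Both tested Slc2a4 probe sets and 1 of the 2 Slc2a1 probe sets were higher with butyrate than with aspirin, although neither gene was called against untreated. For Slc2a4 probe set 1 the difference was 0.45 ± 0.12 (adjusted p = 0.0384), with butyrate at only 115.9 to 195. There, 3 aspirin arrays and both untreated arrays lay at the floor, so the size of this difference depends on the floor. Slc2a4 probe set 2 read 143.3, 497.2, 398.2, 408.7 and 384 with butyrate and 154, 115.1, 154.4, 159 and 112.3 with aspirin, against 209.5 and 219.8 in untreated cells. From 6 h on the butyrate arrays were above the untreated ones and every aspirin array was below them, a difference between drugs of 1.30 ± 0.34 (adjusted p = 0.0381), which was not called after rescaling by quantiles (0.07) or with the 5th-percentile floor (0.0767). Slc2a1 probe set 1 differed by 0.90 ± 0.24 (0.041).

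With aspirin alone, the largest changes with a single direction over the 5 hours were uncalled. They were 1.35 (adjusted p = 0.329) for Slc25a14, a mitochondrial uncoupling protein, 1.35 (0.414) for Slc16a6, -1.34 (0.256) for Slc12a2 probe set 4, -1.28 (0.212) for the sulphate carrier Slc26a2, -1.23 (0.411) for the organic anion carrier Slc22a13 and -0.92 (0.428) for Slc5a1 probe set 1. Slc26a2 read 69.1, 45, 65.9, 74.2 and 63.4 with aspirin, all at the floor, against 297.9 and 164.7 in untreated cells. Slc12a2 probe set 4 read 173.8, 191.3, 121.7, 160.1 and 98.2 with aspirin against 524.8 and 256.3 in untreated cells, all aspirin arrays lying below both. The other tested Slc12a2 probe sets changed by -0.24 (0.715) and -0.84 (0.389) with aspirin, and the other of Slc5a1 by -0.47 (0.841). Under the alternative settings of processing, the change of Slc25a14 ran from 0.36 to 5.79.

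Proteins that carriers depend on were read from a separate list. Of 8 tested sodium pump probe sets, 1 rose and 1 fell with butyrate, beside 7.78% and 3.92% of all tested probe sets. The same shares stand beside the butyrate counts of the other lists below. The beta subunit Atp1b1 read 3550.6, 5314.8, 4995.1, 5766 and 5236.4 with butyrate and 2580.7, 2008.4, 1853, 1852.9 and 1175 with aspirin, against 1979.5 and 2661.5 in untreated cells, a rise of 1.10 ± 0.27 (adjusted p = 0.0214). The other tested Atp1b1 probe sets read 0.46 (0.174) and 1.14 (0.149). Atp1b3, for another beta subunit, fell by 0.58 ± 0.16 (0.0339). Bsg, or basigin, the chaperone that brings Slc16a1 to the surface, rose by 0.52 ± 0.16 (0.048), the 1 call among 3 tested scaffold probe sets. Of 4 kinase and ligase and 4 hexokinase probe sets 0 were called in limma against untreated. Hk1, which phosphorylates glucose, read 0.75 (0.0511) and 0.86 (0.138) with butyrate. Hk2, the other hexokinase on the array, read the other way, at -0.83 (0.341) and -0.39 (0.558).

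The label of a colon carcinoma line was checked against marker genes. The sums add deposited intensities over probe sets, negative values included, so they are no level of a cell type and can hide single probe sets. Epithelial markers (5 of 8 listed genes on the array) summed to 75558.3 to 89729.3 with butyrate and 86427.2 to 97932.2 with aspirin, against 87976.3 to 102946.6 in untreated cells. Immune markers (4 of 6 genes) summed to 244.7 to 312.5, 14.1 to 370.6 and 21.4 to 348 for butyrate, aspirin and untreated. Cd8a, Lyz2 and 2 of the 3 Ptprc probe sets were at the floor on all arrays. The other Ptprc probe set read 212.7 to 323.3, 46.4 to 388.3 and 153.8 to 347.1, and Cd4 read 86.1 to 253.6, 69.5 to 149.4 and 154.8 to 199.3. Endothelial markers (3 of 4 genes) summed to -35.8 to 128.1, -97.2 to 301.2 and -16.2 to 255.9, with Vwf at the floor throughout and Pecam1 at 122.3 to 171.6, 53.1 to 177.2 and 183.6 to 235.7, and hepatocyte markers (4 of 4) to 24.7 to 578.5, 87.6 to 371.5 and 137.5 to 309.2. Within the hepatocyte sum, 1 Alb probe set read 122 to 168.4, 67 to 179.9 and 123.7 to 189.8, and 1 of Apoa1 read 61 to 165.5, 49 to 252.6 and 39.5 to 219.5. Fibroblast and muscle markers (6 of 6) summed to 7417.4 to 9332.8, 6906.2 to 9719.1 and 9590.8 to 9974.5. Of these, Vim read 2285.7 to 3432.7, 4051.1 to 4348.5 and 3503.7 to 4129.2. For 1 Acta2 probe set the values were 2423.6 to 3642.5, 1019.3 to 3835.2 and 3228.4 to 4419.8. One Col1a1 probe set read 235.3, 515.1, 797.3, 870.8 and 1615.4 with butyrate and 106.1, 58.4, 89.5, 119.5 and 123.2 with aspirin, against 159 and 113.8 in untreated cells. It rose by 2.32 ± 0.54 with butyrate (adjusted p = 0.0165), while its 3 other probe sets read -0.36 (0.597), 0.07 (0.921) and 0.15 (0.78). The epithelial keratins Krt19 and Krt18 both changed with butyrate, in opposite directions. The probe sets of Krt19 rose by 1.17 ± 0.27 (0.0172) and 0.87 ± 0.20 (0.0166), whereas those of Krt18 fell by 0.84 ± 0.15 (0.00406) and 0.48 ± 0.12 (0.0258). The part of these shifts in the Slc results was not tested. Between 13.9 and 23.8% of member values lay at the floor on each array, which limits what can be seen of dim carriers.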

How the data were processed

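The deposited table holds 1 column of linear intensity per array for 8799 probe sets, of which 59 were controls. That the unit is intensity was read from the deposited values, of which 21.6 to 25.6% per array were negative, with software, background step and scaling by the authors not given in the sources used here. With trimming of 2% at each end, array means were 1001.52 to 1002.08, so values were not normalized again.

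The absolute 10th percentile (90.91) served as floor before log2, and probe sets under the 30th percentile of mean log2 (6.54) were left out, 2622 in number. Tests used limma 3.58.1 in R 4.3.3 (lmFit, then eBayes with a variance trend), adjusted over 6118 probe sets: treatments against untreated on all 12 arrays (9 residual degrees of freedom), drug against drug on 10 arrays with hour as a block (4) and slopes over log2 hours (6). The difference of slopes was added after seeing the data. The tests were checked on simulated data. The number of arrays limits the precision.

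Names came from the array annotation, and 181 of 181 members matched current symbols by gene number. One probe set that lists its symbol in duplicate (Slc25a51) was left out. Promoter sequences came from RefSeq (GRCr8), and 101 of the 120 Slc genes had one. Python 3.11.15, pandas 2.3.3 and matplotlib 3.10.9 were used. Named genes were every gene called with butyrate against untreated, the 12 largest called differences between drugs, the 3 steepest called slopes each way, the 6 largest one-way aspirin changes, a set of carriers taken whatever their values (of which Slc20a1 had no such probe set and Slc30a1 was too dim), and the brightest of each class, a comparison between probe sets that served only to choose names. Slc11a2, Slc25a4, Slc25a11, Slc27a2 and the dim Slc9 genes were named after their values were seen. The members and lists were chosen with earlier results of these data known. The alternatives tried were other floors, scalings, filters and variance models, hour as a block, slopes over plain hours and leaving out each array.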

Additional observations from a re-analysis of the deposited data

Results flagged for a closer look

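The difference between the drugs at matched hours was tested within one model, and the 12 called Slc genes with the largest differences are given here. Differences (butyrate minus aspirin, log2) were 2.73 for Slc27a1, 2.28 for Slc41a2, 1.52 for Slc40a1, 1.49 for Slc1a1, 1.32 for Slc4a3, 1.30 for Slc2a4, 1.18 for Slc12a7 and 1.09 for Slc22a18. They were -2.28 for Slc25a26, -1.89 for Slc16a6, -1.24 for Slc3a2 and -1.09 for Slc19a1. Rescaling the arrays by quantiles ended the calls of Slc4a3, Slc2a4 and Slc22a18. With each of the 10 arrays left out in turn, the calls of Slc4a3, Slc2a4, Slc22a18, Slc25a26 and Slc12a7 were lost in 8 cases. Those of Slc27a1 and Slc19a1 were lost in 6, that of Slc41a2 in 5 and those of Slc1a1 and Slc3a2 in 4. Only the calls of Slc16a6 and Slc40a1 were kept in all 10.

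Single arrays stood far from the other 4 of their drug in 11 of 98 combinations of named probe set and drug, by Dixon's test on the floored log2 values. In 6 of these 11, 1 or more of the 5 arrays lay at the floor, which sets the spacing of the values, so the test says little there. Among the 76 combinations with no array at the floor 5 stood out, where chance gives about 1 in 20. These were as follows. At 2 h of butyrate, Slc7a1 read 1300.5 (663.2 to 734.1 later) on one probe set, Slc6a20a read 259.7 (166.7 to 180) and Slc2a4 read 143.3 (384 to 497.2). At 24 h of butyrate Slc35b1 read 2003.6 (others 2404.8 to 2581.4), and at 16 h of aspirin Slc2a1 read 1732.5 (1078.4 to 1236.6). The 6 with arrays at the floor were Slc25a26 at 349.8 (60.5 to 85.6) and Slc7a1 at 256.3 on another probe set (-45.2 to 102.3) at 2 h of butyrate, and Slc1a3 at 94.4 (41.8 to 91.2) at 24 h of butyrate. With aspirin they were Slc10a2 at 5.9 at 12 h (256.1 to 340.6), Slc1a3 at 117 at 16 h (38.9 to 86.3) and Slc41a2 at 222.6 at 24 h (69.5 to 112.1).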

How the results depend on the processing

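The 20 member calls with butyrate became 9 with the floor at the 5th percentile, 10 with no filter on dim probe sets and 7 with hour as a factor. They became 0 with the 2 and 24 h arrays alone and hour as a block, a fit with few arrays. Leaving out single arrays gave 7 to 27. Against aspirin the 26 calls became 15 with the higher floor and 15 with no filter, and 2 to 28 with an array left out. The 9 butyrate slopes became 4 and 4, and 3 to 10. The 0 calls for aspirin against untreated became 0 to 7 with an array left out, and its 0 slopes 4 with the floor at the 25th percentile, 1 with arrays centred on their medians and 0 to 1 with an array left out. The cause was not tested. No named change that was called reversed. Centring arrays on their medians moved the median of all tested probe sets to -0.19 with butyrate, and to 0.08 with aspirin, where the medians of all Slc members (0.04), of amino acid (0.10) and of nucleoside and vitamin carriers (0.04) turned positive. The blocks were the hours of the arrays. Replicate numbers only follow the order of deposit and were not used in these fits.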
